A study of Mus musculus with 2 samples.

Results

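The potassium channel family was described in the newborn mouse heart, as all genes whose symbol is Kcn followed by letters and a number and nothing more. The rule found 92 genes among the 43346 Ensembl genes of the deposited tables, all of them protein coding. Antisense and overlapping RNAs such as Kcnq1ot1 were left out. The data are total RNA-seq of 2 hearts of the strain B6NCrl, 1 per library and not pooled, taken on postnatal day 0. Replicate 1 was the heart of pup 2 and replicate 2 that of pup 3 of pregnancy 1, with sex not collected and no treatment or allele given in the labels. There is thus 1 group (n = 2), and the comparisons are between genes within each heart and between the littermates. Both samples carry 1 donor identifier in the labels, and they were taken as 2 animals from the pup numbers. The libraries held 46151722 and 44707283 expected counts, which are reads per gene with those that match several genes shared out. Levels are in TPM, a read density per base of transcript scaled to a fixed total. Errors are the SD of the 2 pups.

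Potassium channels let potassium leave the cell down its gradient, which sets the resting potential of a heart muscle cell and ends its action potential. Inward rectifiers (Kcnj) hold the resting potential, voltage-gated channels (Kcna, Kcnb, Kcnc, Kcnd, Kcnh, Kcnq) open during the action potential, and tandem-pore channels (Kcnk) pass a background leak. Small-conductance channels (Kcnn) respond to calcium. Auxiliary subunits (Kcne, Kcnip, Kcnab, Kcnmb) form no pore of their own and alter the gating or delivery of the pore subunits.

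A small number of genes carried most of the family's RNA. At 1 TPM or more in both pups, 22 of the 92 genes were detected (23.9%), against 54.5% of 21474 protein-coding genes. A further 4 passed 1 TPM in replicate 1 but not in replicate 2, and 66 were below it in both hearts. Of those 66, 12 had 0 counts in both, which allows up to 3 counts, or between 0.0185 and 0.102 TPM depending on the length of the gene. Such floors cover counting error only. The summed level was 598 TPM in replicate 1 and 516 TPM in replicate 2, and the median gene of the family stood at 0.19 TPM. The 15 auxiliary genes held 57.9% ± 2.56 of the sum (SD, n = 2), although only 5 of them were detected. The 77 pore-forming and silent subunit genes held the other 42.1% ± 2.56, with 17 detected. With every gene's counts divided by the length of its longest coding transcript, the shares had the opposite order, 33.5% ± 1.80 for the auxiliary genes and 66.5% ± 1.80 for the others. Just inside the detection limit stood Kcnn3 (1.11 and 1.12 TPM in replicates 1 and 2), and just outside it Kcnk2 (1.35 and 0.81 TPM). Both calls depend on the estimate, since Kcnn3 stood at 0.97 and 0.95 TPM over coding transcripts alone and Kcnk2 at 1.76 and 1.21 TPM by the deposited posterior mean.

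**Figure D1:**
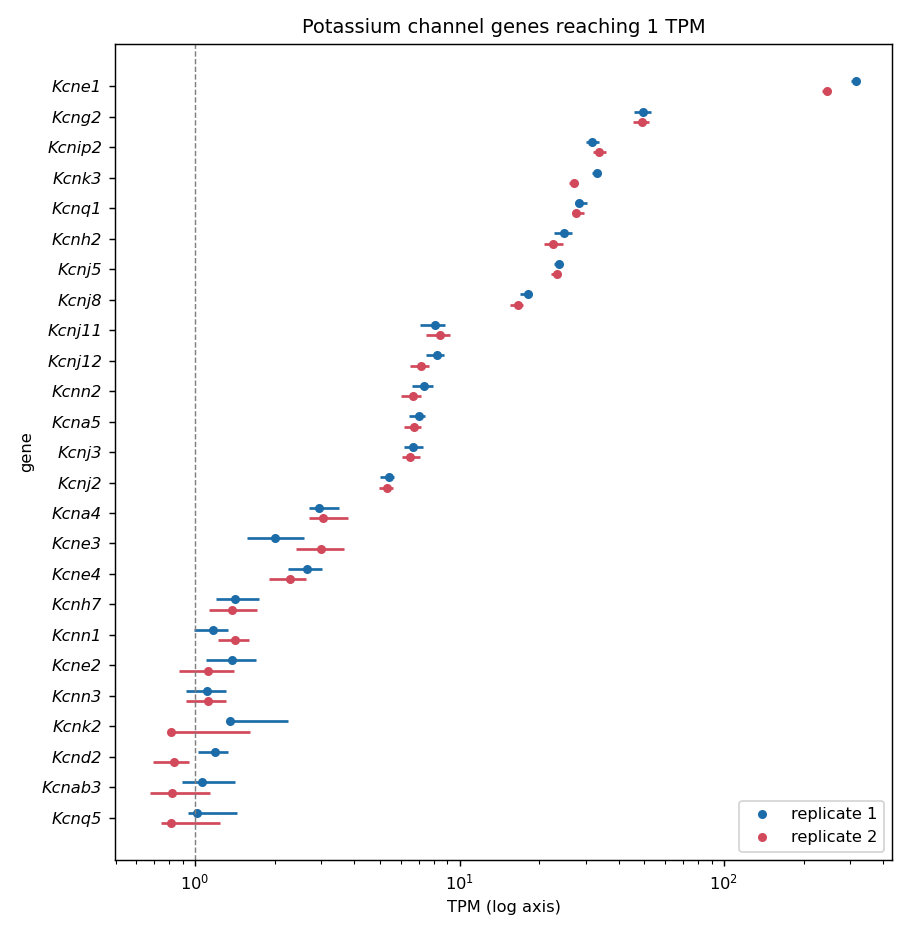
Level of 25 potassium channel genes that reached 1 TPM in either heart, on a log axis of TPM. Points are replicate 1 (blue) and replicate 2 (red), lines are the deposited credibility intervals, and the dashed line marks 1 TPM. Kcne1 stands apart at 316 and 245 TPM, 8 genes lie above 10 TPM in both hearts, and the lowest genes crowd around the dashed line.

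Kcne1, a single-pass subunit that slows the opening of the Kcnq1 channel to form the slow delayed rectifier current, was the most abundant member. It stood at 316 TPM (9217 counts) in replicate 1 and 245 TPM (6880 counts) in replicate 2. It alone made up 50.1% ± 3.72 of the family's TPM (SD, n = 2), and it was lower in replicate 2. The gene lies on mm10 chromosome 16, from 92345982 to 92359468. Its pore partner Kcnq1 (chromosome 7, 143106362 to 143427042) stood at 28.3 and 27.5 TPM, a level nearly equal in the pups. The ratio of Kcne1 to Kcnq1 was 10.03 ± 1.60 (n = 2). That ratio depends on the length assigned to Kcne1, whose reads were divided between a transcript of 601 bases (Kcne1-202) and one of 3155 bases (Kcne1-201), both with a coding sequence of 387 bases. The short transcript took 60.0% ± 1.59 of the counts but 90.1% ± 0.59 of the TPM. Over the longest coding transcript of each gene, Kcne1 stood at 79.4 ± 15.7 TPM, 22.0% ± 2.82 of the family and 2.59 ± 0.476 times Kcnq1, and was still the highest of the family.

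The other Kcne genes were low. Kcne4 stood at 2.65 and 2.29 TPM and Kcne3 at 2.01 and 3.0 TPM, and their order differed between the pups, so the pair was not separated. Kcne2, which associates with the Kcnh2 channel, stood at 1.38 and 1.12 TPM. All 4 genes of the subfamily that matched the rule were nevertheless detected, the only subfamily of which this was so. Akap9, the anchoring protein that ties protein kinase A to the Kcnq1 complex, stood at 63.2 and 71.7 TPM on 3406 and 3409 counts. Kcnq1 had 3015 and 2922 counts, so the higher TPM of Akap9 rests largely on the length assigned to it. Kcnq1 has exons that overlap the antisense RNA Kcnq1ot1, which held 1711 and 1512 counts (0.53 and 0.48 TPM). The sources used here do not say whether reads were counted by strand, and reads of the overlap cannot be told apart between the genes without it. The same holds for 9 detected members in all that share exons with a gene on the opposite strand, among them Kcne3, Kcng2, Kcnh7, Kcnj3, Kcnk3, Kcnn1 and Kcnn2.

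Kcnh2, the pore of the rapid delayed rectifier current, stood close to Kcnq1 at 24.8 and 22.6 TPM (chromosome 5, 24319589 to 24351604). The ratio of Kcnq1 to Kcnh2 was 1.18 ± 0.0563 and was above 1 in both pups, with intervals of TPM that did not overlap. Kcnh2 was read from 2 coding transcripts with nearly equal TPM. Kcnh2-201, of 4221 bases and 15 exons, took 41.8% ± 0.295 of the TPM and 56.0% ± 0.589 of the counts. Kcnh2-202, of 3193 bases and 11 exons, took 40.2% ± 0.846 of the TPM and 40.4% ± 0.743 of the counts, and begins inside the gene at position 24329591. Its coding sequence measures 2460 bases against 3486 in the longer form. A Kcnh2 form with a short amino terminus from an internal start is well known in heart, where both forms assemble together. A non-coding processed transcript, 741 bases long, took a further 12.8% ± 0.0687 of the TPM on 78.0 and 69.6 counts.

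The start of Kcnh2-202 is also the annotated start of the only RefSeq promoter window of the gene (build GRCm38.p6), shown here because the short form begins there. The window holds the 250 bases before that start, on the minus strand at chr5:24329592-24329841, 5′ to 3′, with capitals for the motifs searched. Those were the GC box GGGCGG, the TATA element TATAAA, the GATA element AGATAA, the M-CAT element CATTCC and the E-box CAGCTG, each on both strands.
Kcnh2: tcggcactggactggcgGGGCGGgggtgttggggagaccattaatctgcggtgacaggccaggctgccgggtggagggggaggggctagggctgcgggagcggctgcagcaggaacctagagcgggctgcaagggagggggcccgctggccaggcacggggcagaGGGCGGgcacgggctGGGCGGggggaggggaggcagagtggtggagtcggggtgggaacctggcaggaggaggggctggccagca
It holds 3 GC boxes, 14 CpG dinucleotides and 73.6% G and C. Over all 32851 windows of the same length, 32.7% had a GC box, and the medians were 6 CpG dinucleotides and 52.4% G and C. These matches describe letters in the window and are no evidence of binding.

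Kcnh7, another gene of the ether-a-go-go related group, stood at 1.42 and 1.38 TPM. Its exons overlap those of Gca on the opposite strand, which stood at 14.1 and 13.45 TPM, and its reads were spread over 4 transcripts. By TPM the main one was Kcnh7-202 and by counts Kcnh7-201, in both pups. Kcnh7-202 held 63.4% of the TPM in replicate 1 but 31.2% in replicate 2. There its interval (0.22 to 0.66 TPM) overlapped that of the non-coding Kcnh7-204 (0.14 to 0.67 TPM). Over the length of its longest coding transcript Kcnh7 stood at 0.599 TPM, below the detection limit. The other 6 Kcnh genes were below 1 TPM, the highest of them Kcnh6 at 0.09 and 0.07 TPM. Among the Kcnq genes, Kcnq5 stood at 1.02 and 0.81 TPM and Kcnq3 had 3 counts in each heart.

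**Figure D2:**
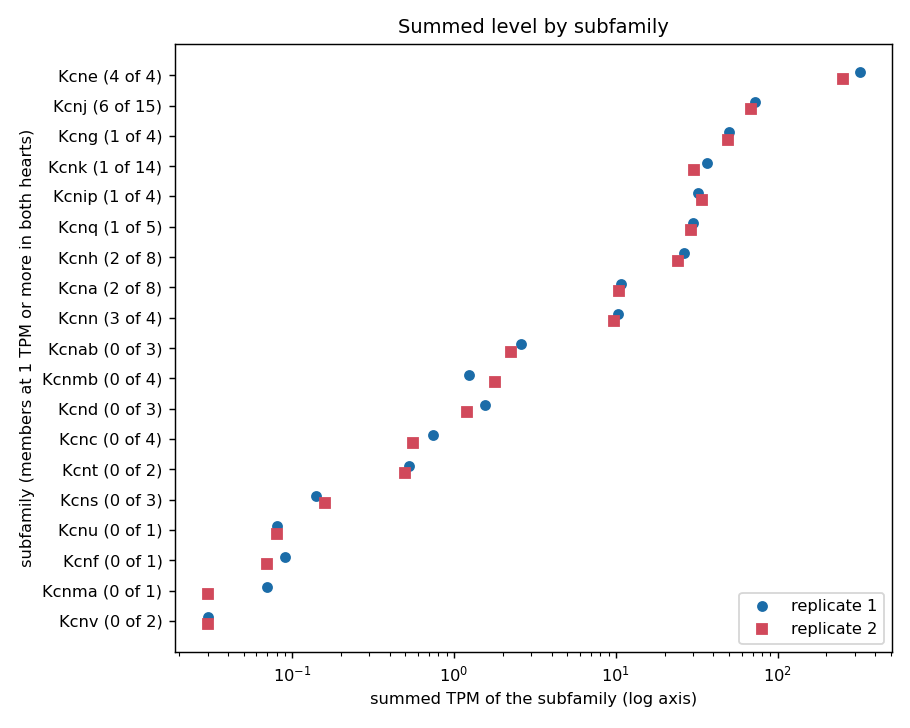
Summed TPM of 19 subfamilies, on a log axis, in replicate 1 (blue circles) and replicate 2 (red squares). Brackets give the members at 1 TPM or more in both hearts out of all members. Kcne leads at 322 and 251 TPM, followed by Kcnj at 71.9 and 68.7 TPM. In Kcne the 2 pups stand visibly apart, as they do in some low subfamilies such as Kcnmb (1.24 and 1.80 TPM).

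Inward rectifiers summed to 71.9 and 68.7 TPM over 15 genes, of which 6 were detected. Kcnj5, a subunit of the channel that acetylcholine opens through G protein beta-gamma subunits, led them at 23.9 and 23.3 TPM. Its partner Kcnj3 stood at 6.67 and 6.47 TPM, and the ratio of Kcnj5 to Kcnj3 was 3.59 ± 0.0181 (n = 2). Kcnj6 and Kcnj9, which belong to the same group and act mainly in neurons, had at most 2 counts in either heart. Chrm2, the muscarinic receptor of the heart, stood at 11.3 and 16.1 TPM, and the G protein genes Gnb1 and Gnb2 were between 189 and 229 TPM.

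The subunits of the channel that closes with ATP were both present. Kcnj8 stood at 18.2 and 16.7 TPM and Kcnj11 at 8.05 and 8.43 TPM, a ratio of 2.12 ± 0.197. Their sulphonylurea receptor partners were both detected, Abcc9 at 15.0 and 13.0 TPM and Abcc8 at 9.96 and 8.83 TPM. Kcnj11 was quantified on a single transcript of 1173 bases and Kcnj8 on one of 2188 bases. Kcnj8 is also known as a gene of pericytes and vascular smooth muscle. All 7 markers of those cells were detected, with sums of 1191 and 943 TPM, of which Acta2 alone made up 1130 and 884 TPM. The other markers lay between 2.25 TPM (Myh11) and 21.7 TPM (Cnn1), both in replicate 2. Among them the pericyte gene Rgs5 stood at 17.1 and 15.7 TPM. The part of these cells in the Kcnj8 level was not tested. In bulk tissue, fewer cells of a type and less RNA per cell cannot be told apart.

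Of the genes of the classical inward rectifier current, Kcnj12 stood at 8.19 and 7.17 TPM and Kcnj2 at 5.39 and 5.34 TPM. Kcnj12 was higher per length in both pups (1.43 ± 0.125 times), with intervals of TPM that did not overlap. The counts had the opposite order, 1100 and 1078 for Kcnj2 against 685 and 593 for Kcnj12, because the annotated Kcnj2 transcript measures 5444 bases and that of Kcnj12 2291. Kcnj14 (0.23 and 0.2 TPM) and Kcnj4 (0.08 and 0.09 TPM) of the same group were low. Among the transport-type rectifiers, Kcnj15 stood at 0.58 and 0.63 TPM and Kcnj13 at 0.63 and 0.29 TPM. Kcnj13, which overlaps Gigyf2, was the only member with a deposited posterior SD above 10% of its count, taken as the mark of reads shared between genes. Kcnj1, a renal channel, and Kcnj16 had 0 counts in both hearts, and Kcnj10 had 0 and 4 counts.

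Promoter windows of the genes of these 2 rectifier currents are shown to set the partners side by side, with the same motifs in capitals. Kcnj2 is on the plus strand at chr11:111065914-111066163, Kcnj12 on the plus strand at chr11:61065554-61065803, Kcnj5 on the minus strand at chr9:32344345-32344594 and Kcnj3 on the plus strand at chr2:55435720-55435969. All are from RefSeq, build GRCm38.p6, 250 bases before the start, 5′ to 3′.
Kcnj2: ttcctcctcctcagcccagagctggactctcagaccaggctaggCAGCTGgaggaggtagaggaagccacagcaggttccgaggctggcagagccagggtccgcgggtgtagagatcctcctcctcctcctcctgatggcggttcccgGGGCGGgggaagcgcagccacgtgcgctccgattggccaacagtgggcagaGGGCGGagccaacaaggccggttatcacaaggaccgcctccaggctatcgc
Kcnj12: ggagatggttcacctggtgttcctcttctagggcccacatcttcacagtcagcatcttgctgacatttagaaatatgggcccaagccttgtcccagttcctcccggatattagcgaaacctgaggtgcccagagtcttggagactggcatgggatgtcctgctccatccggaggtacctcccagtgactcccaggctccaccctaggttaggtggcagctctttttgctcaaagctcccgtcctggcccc
Kcnj5: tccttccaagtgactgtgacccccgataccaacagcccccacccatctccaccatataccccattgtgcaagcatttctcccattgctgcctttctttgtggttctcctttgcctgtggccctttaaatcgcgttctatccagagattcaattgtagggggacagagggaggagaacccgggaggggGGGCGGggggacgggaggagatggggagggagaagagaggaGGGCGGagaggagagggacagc
Kcnj3: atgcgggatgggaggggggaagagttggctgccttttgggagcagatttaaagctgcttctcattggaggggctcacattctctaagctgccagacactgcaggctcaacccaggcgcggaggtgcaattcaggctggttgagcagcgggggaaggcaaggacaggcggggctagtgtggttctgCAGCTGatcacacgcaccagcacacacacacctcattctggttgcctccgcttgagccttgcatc
Kcnj2 holds 2 GC boxes and 1 E-box, Kcnj5 2 GC boxes, Kcnj3 1 E-box, and Kcnj12 none of the 5 motifs. The RefSeq start of Kcnj12, at 61065804, lies downstream of the start of its GENCODE transcript at 61022564. CpG dinucleotides numbered 14 in Kcnj2, 4 in Kcnj12 and 7 in each of Kcnj5 and Kcnj3. Windows were found for 67 of the 92 genes, 92 windows in all. Of the 18 windows of detected genes 9 had a GC box, against 43.2% of the 74 windows of the others and 32.7% of all windows. Several windows of 1 gene share sequence, so these shares are descriptions.

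Kcng2 was the second most abundant member, at 49.6 and 49.0 TPM (chromosome 18, 80294546 to 80364254). It encodes a silent subunit, which forms no channel alone and alters other voltage-gated channels by joining them. Part of the Kcng2 level lay in a transcript of 279 bases, which took 2.32% ± 0.0553 of the counts but 26.2% ± 0.401 of the TPM. The full transcript of 2813 bases stood at 36.4 and 35.5 TPM by itself. An RNA on the opposite strand with overlapping exons, D330025C20Rik, held 791 and 376 counts against 3867 and 3735 for Kcng2. The other 9 silent subunit genes were below 1 TPM, the highest of them Kcng1 at 0.16 and 0.14 TPM.

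Voltage-gated pore subunits of the Kcna to Kcnd groups were low as a class, with 3 of 17 genes detected and a summed level of 14.8 and 14.3 TPM. Kcna5, which carries the ultrarapid delayed rectifier current, led at 7.01 and 6.75 TPM, and Kcna4, a channel of the slowly recovering transient outward current, followed at 2.95 and 3.05 TPM. Kcna5 exceeded Kcna4 2.29 ± 0.115 times. The highest Kcnc gene was Kcnc2 at 0.54 and 0.47 TPM. Of the genes typical of nerve, Kcna1 had 7 counts in each heart, Kcna2 had 1 and 5, and Kcnc1 had 0 and 1. Neuron markers were near the detection limit, with 2 of 8 at 1 TPM or more in both hearts and sums of 5.74 and 7.95 TPM. Schwann cell markers stood likewise at 2 of 5, with sums of 4.44 and 5.03 TPM.

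The subunits of the fast transient outward current, which shapes the short action potential of the adult mouse, were unequal. Kcnip2, the calcium-binding subunit that brings the Kcnd channels to the membrane, stood at 31.7 and 33.6 TPM, below only Kcne1 and Kcng2 by its mean. Its pore partner Kcnd2 stood at 1.19 TPM (230 counts) and 0.83 TPM (158 counts). Kcnd3 was at 0.2 and 0.22 TPM and Kcnd1 at 0.16 TPM in both hearts. Kcnip2 thus exceeded Kcnd2 33.5 ± 9.78 times (n = 2), and the interval of Kcnip2 lay far above that of Kcnd2 in each pup. Kcnd2 exceeded Kcnd3 in both pups, but the intervals of the 2 genes overlapped in replicate 2, and the pair was not called. Dpp6 and Dpp10, other partners of the Kcnd channels, had at most 7 counts. Irx5, a repressor of Kcnd2 in the mouse ventricle, stood at 5.64 and 4.93 TPM.

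Kcnip2 was divided among 3 coding transcripts that differ in length. Kcnip2-202 led with 52.0% and 45.6% of the TPM in replicates 1 and 2, followed by Kcnip2-209 (30.6% and 30.0%) and Kcnip2-208 (16.9% and 22.9%). Kcnip1 had 3 and 1 counts, Kcnip3 11 and 20, and Kcnip4 7 and 10. The ratio of Kcnip2 to Kcnip1 is therefore not given as a fold.

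**Figure D3:**
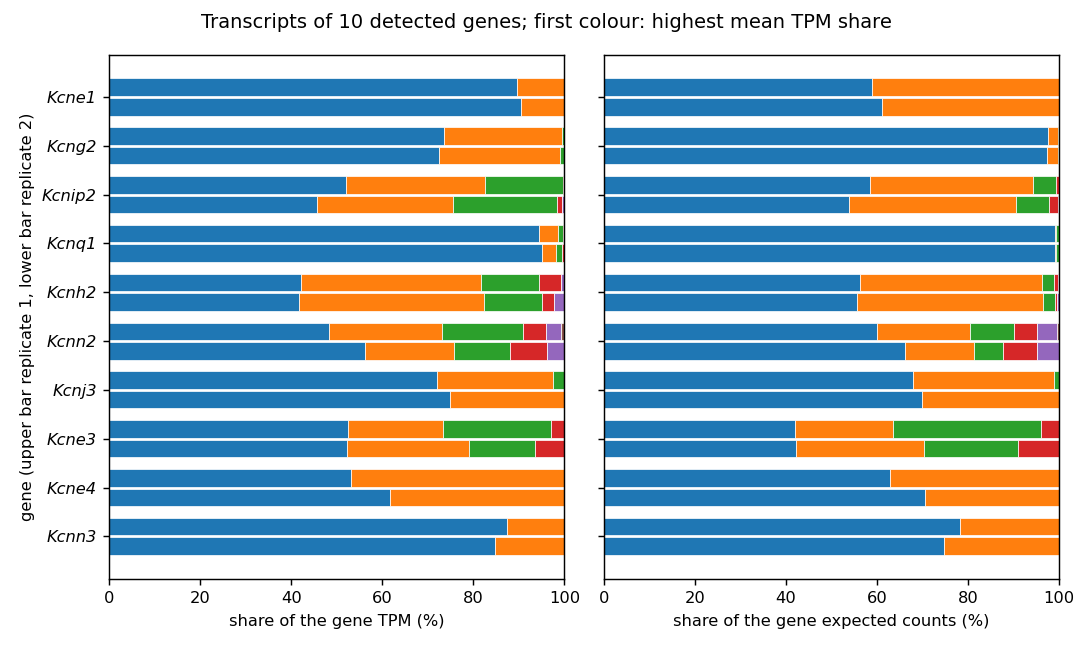
Share of each transcript in 10 detected genes that have several, as percent of the gene's TPM (left) and of its expected counts (right); the upper bar is replicate 1 and the lower bar replicate 2. The first colour of each gene is its transcript with the highest mean TPM share. The short Kcne1 transcript takes 90.1% of TPM but 60.0% of counts. In these 10 genes the main transcript is the same in both pups. Kcnh7, whose shares were less alike between the pups, is not shown.

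Tandem-pore channels were represented by a single detected gene among 14, or by 2 with the posterior mean, where Kcnk2 also passed 1 TPM in both hearts. Kcnk3, an acid-sensitive background channel, stood at 33.2 TPM (4698 counts) in replicate 1 and 27.1 TPM (3796 counts) in replicate 2, from a single transcript of 3810 bases. Kcnk2, the mechanically gated relative that is prominent in adult mouse heart, stood at 1.35 and 0.81 TPM, and Kcnk3 exceeded it 29.0 ± 6.27 times. Kcnk5 (0.65 and 0.79 TPM), Kcnk6 (0.73 and 0.65 TPM) and Kcnk1 (0.35 and 0.52 TPM) were below the limit. The order of Kcnk6 over Kcnk1 was the same in both pups but was not called. The intervals overlapped in replicate 2. The mean log2 ratio of Kcnk1 to Kcnk6 (-0.58) also did not exceed the gap between the pups (-0.88 and -0.27). Kcnk9, the closest relative of Kcnk3, had 0 counts in both hearts, and Kcnk4 had 2 and 0.

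Calcium-activated channels were led by Kcnn2, a small-conductance channel, at 7.37 and 6.68 TPM. Of this level 48.2% and 56.2% lay in the coding transcript Kcnn2-205, and a processed transcript took 24.9% and 19.6%. Kcnn1 stood at 1.17 and 1.42 TPM and Kcnn3 at 1.11 and 1.12 TPM, while Kcnn4, the intermediate-conductance channel of blood cells and fibroblasts, was at 0.69 and 0.55 TPM. Kcnn2 exceeded Kcnn3 6.30 ± 0.478 times. Kcnma1, the large-conductance channel of smooth muscle, had 9 and 5 counts (0.07 and 0.03 TPM). Its subunit Kcnmb1 had 48 and 52 counts (0.31 and 0.34 TPM), and Kcnmb4 stood at 0.76 and 0.98 TPM, higher than Kcnmb1 in both pups. The sodium-activated Kcnt genes summed to 0.53 and 0.5 TPM.

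Of the Kcnab subunits, which bind the cytoplasmic side of the Kcna channels, none was detected in both hearts by TPM. Kcnab3 stood at 1.06 and 0.82 TPM, Kcnab1 at 0.76 and 0.9 TPM and Kcnab2 at 0.78 and 0.52 TPM. By the posterior mean Kcnab2 stood at 1.69 and 1.48 TPM, detected and above Kcnab1 (0.92 and 1.04 TPM) in both hearts, while by TPM the pair changed order between the pups. Most of the Kcnab1 level lay in transcripts that are not annotated as coding. The log2 ratio of Kcnab1 to Kcnab2 was -2.18 over coding transcripts alone and 0.56 over the longest coding transcript. Each was called, but without requiring separate credibility intervals. The first rests on coding Kcnab1 levels of 0 and 0.09 TPM, below the 0.1 TPM added to each gene. The order of the pair thus depends on how the level is computed.

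Among the 24 pairs of members that share a current, a complex or a subfamily, the first gene was called higher in 14, the second in 5, and neither in 5. For a call both pups had to give the same sign, the mean log2 ratio of TPM + 0.1 had to exceed the gap between the pups, and the deposited credibility intervals had to be separate in each heart. No p-value is given: with 2 pups, the smallest p that an exact sign-flip permutation allows is 0.5 (two-sided). Among the second genes called were Kcnj12, Kcnj8, Kcne1 and Kcnmb4, over Kcnj2, Kcnj11, Kcnq1 and Kcnmb1. In the order of all levels, Kcne1 and Kcng2 were each above the next gene in both pups without overlap. The ranges of the pups overlapped for Kcnip2 and Kcnk3, for Kcnk3 and Kcnq1, and for Kcnh2 and Kcnj5. Kcnj8 stood below these and 2.12 times above Kcnj11, which in turn overlapped Kcnj12.

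**Figure D4:**
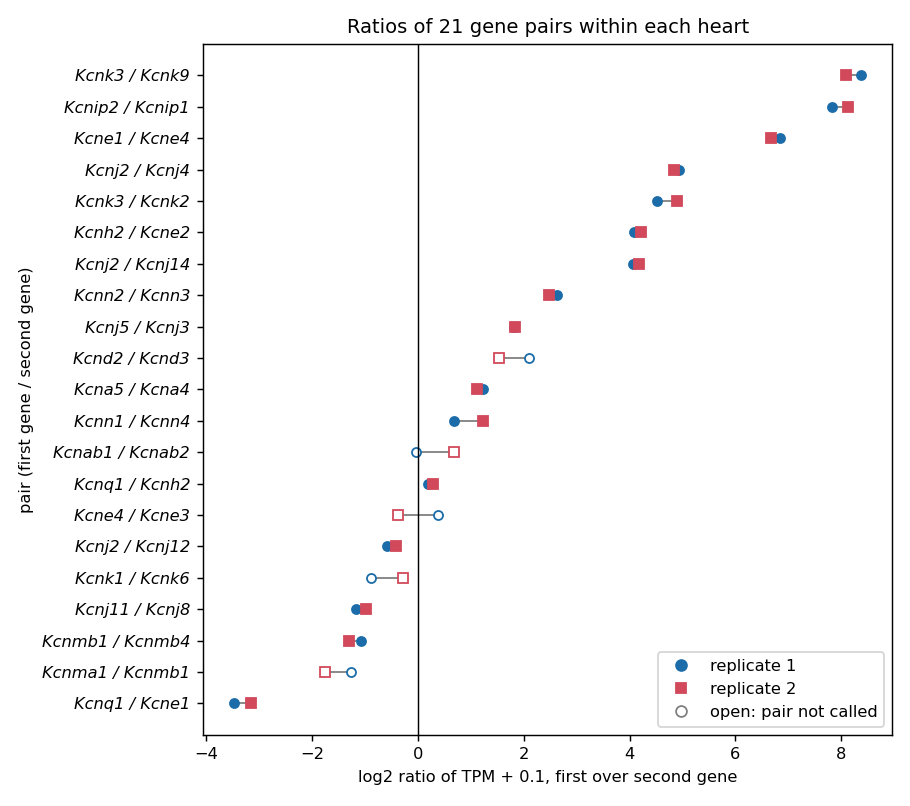
Log2 ratio of TPM + 0.1 of the first over the second gene of 21 pairs, in replicate 1 (blue circles) and replicate 2 (red squares); a ratio above 0 means that the first gene is higher. Filled points are called pairs and open points the 5 that were not called; Kcne4 / Kcne3 and Kcnab1 / Kcnab2 cross 0 between the pups.

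The same limits were applied to the subunit genes of the other voltage-gated cation channels. Of 26 calcium channel subunit genes 10 were detected (38.5%), with a sum of 95.1 and 89.8 TPM led by Cacna1c. Of 14 sodium channel subunit genes 3 were detected (21.4%), with a sum of 20.15 and 16.6 TPM. The share at 10 TPM or more was 8.70% in the potassium channel family, 7.69% among calcium channel genes and 7.14% among sodium channel genes, against 30.0% of protein-coding genes. Of 22 partner and regulator genes listed with the family, 11 were detected, among them Cav3, a caveolar protein of muscle, at 153 and 141 TPM.

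Of 36 members with a mean count of 50 or more, 0 had an absolute log2 ratio of 1 or more between the pups, where 0.498% of 13463 genes did. The ratios are of counts scaled by the trimmed mean of M-values, replicate 2 over replicate 1. The median absolute ratio was 0.16 (log2) over the 36 members and 0.10 over all genes, with median mean counts of 200 and 930 behind them. The other 56 members had too few counts to enter. The 3 members beyond 0.5 were Kcnk2 (-0.60), Kcne3 (0.55) and Kcnd2 (-0.51), which had between 69 and 230 counts in a heart. The intervals of Kcnd2 were separate between the pups, but it was not detected in both.

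Kcne1 and Kcnk3 were the detected members whose intervals of TPM did not overlap between the pups, 2 of 22, while 18% of 12812 detected genes had such intervals. Kcne1 was lower in replicate 2 by a log2 ratio of -0.39, and Kcnk3 by -0.28. These kept their sign under DESeq2, spike-in and unscaled TPM ratios, which gave -0.41 to -0.33 for Kcne1 and -0.29 to -0.22 for Kcnk3. Marker lists also differed between the hearts. The sum of heart muscle markers was lower in replicate 2 (31082 and 27117 TPM, 5 of 5 detected). Among them only Nkx2-5 was higher in replicate 2 (106 and 117 TPM). The sum of smooth muscle and pericyte markers was also lower (1191 and 943 TPM, 7 of 7 detected), with Acta2 alone at 1130 and 884 TPM. In that list Cnn1 was higher in replicate 2 (20.3 and 21.7 TPM) and Notch3 was equal (2.79 TPM in each heart). Sinoatrial markers, of which 3 of 5 were detected, summed to 8.83 and 12.63 TPM, with Shox2 at 1.70 and 4.21 TPM. Atrial markers summed to 13147 and 14089 TPM, ventricular markers to 17949 and 17728 TPM, and red blood cell markers to 6033 and 3914 TPM. Of 4 lung epithelial markers 1 was detected in both hearts, and the list summed to 29.8 TPM in replicate 1, led by Sftpc, and to 638 TPM in replicate 2, led by Scgb3a2. Their part in these differences was not tested.

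**Figure D5:**
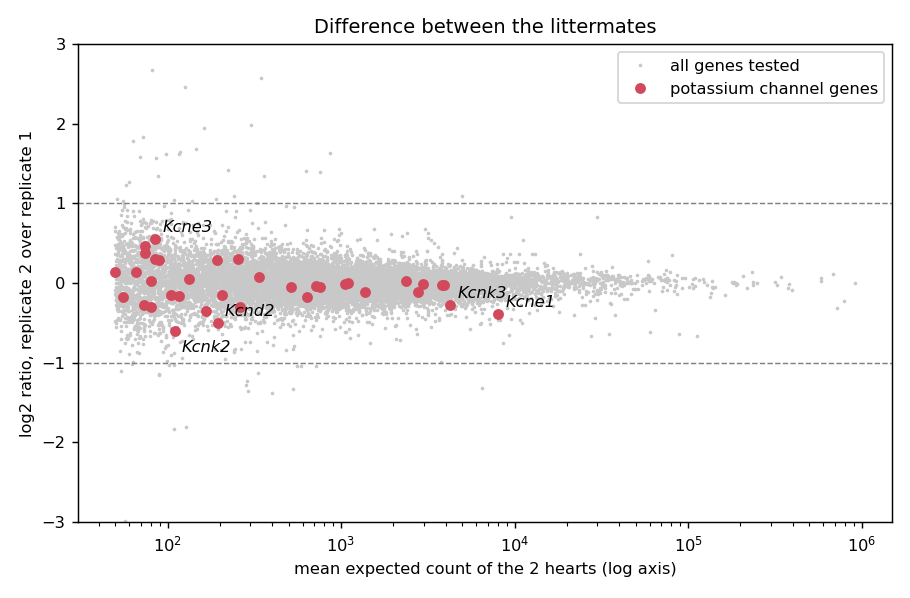
Log2 ratio of scaled counts, replicate 2 over replicate 1, against the mean expected count (log axis) for the 13463 genes tested (grey) and for 36 potassium channel genes (red). Dashed lines mark ratios of -1 and 1, and 19 genes lie outside the plotted range of 3; no potassium channel gene lies beyond the dashed lines, and Kcne1, at the highest count, is lower in replicate 2.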

How the data were processed

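Gene and transcript tables of 2 neonatal hearts, 1 per library, were used as deposited. Per the deposited read-me, they were quantified on mm10 with GENCODE M4; the column names are those of RSEM, and the sources used here name neither the aligner nor tool versions. Per the labels, RNA above 200 bases was used, with 10 ng per library. Expected counts and TPM are the authors' deposited values. The authors' credibility intervals of TPM and posterior SD of counts (a signal in TPM or count units) have an interval width that is not stated. The deposited percent of each transcript was recomputed from TPM and counts. TPM depends on the annotated transcript length, so short transcripts weigh more.

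Symbols, coordinates and transcript types came from GENCODE M21 on the same build (42462 of 43346 Ensembl genes and all but 3 of 298 member transcripts matched). Features that are no gene held 0.000646% and 0.000637% of counts and were left out. Scaling used edgeR 4.0.16 (TMM, prior count 2) on expected counts rounded to whole numbers, in R 4.3.3; DESeq2 1.42.0 size factors were an alternative. The biological coefficient of variation was 0.0892 over 15980 genes. The scripts were tested on simulated counts. The p-values a model would give were not computed for 2 samples of 1 group.

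Members, lists and pairs were chosen with earlier results of these data known. Values were to be named for members detected at 1 TPM in both pups, for pair members and for 36 heart current genes; others are named as the highest of their group or, chosen after their values were seen, as low relatives of named genes. The protein search planned for the pore signature was not done, as no protein table was used here. A few genes and the pairs that hold them are counted in the totals but not reported here by name or in the figures.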

Additional observations from a re-analysis of the deposited data

How the results depend on the processing

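The count of 22 detected genes was 33 at 0.5 TPM, 17 at 2 TPM, 50 at 10 or more expected counts, 21 over protein-coding transcripts alone and 25 with posterior means (adding Kcnk2, Kcnab2 and Kcnj15); with 1 pup alone it was 22 or 26. The summed level of 557 TPM became 641 without mitochondrial genes and spike-ins. Dividing counts by the longest coding transcript, an alternative chosen after seeing the data, gave 359 TPM and 21 detected genes. Pairs over coding transcripts or the longest length were called without the interval condition. Pairs called for the first gene numbered 14 to 16 over all alternatives. The pair of Kcnab1 and Kcnab2, not called, turned to a log2 ratio of -2.18 over coding transcripts and -0.64 with posterior means (not called), and was called for Kcnab1 at 0.56 over the longest length. No called pair changed sign or lost its call. With 1 pup alone this outcome was fixed in advance, because there is no gap between pups and the intervals were already separate. A change of pseudocount cannot alter the sign of a ratio. These settings therefore do not test the calls fully. Members past a log2 ratio of 1 between the pups numbered 2 of 52 at a mean count of 10 or more (Kcnk13 and Kcnc4). With no filter they numbered 6 of 92 (also Kcnmb2, Kcna2, Kcnh3 and Kcnj10, none above 15 counts). The share of all genes past 1 at these looser filters was not computed, so these numbers say nothing particular to the family. With DESeq2, spike-in or TPM scaling the number was 0 of 36. The main transcript matched between the pups in 16 of 16 genes with several, by TPM and by counts. Spike-in scaling rests on 262 and 246 counts. The coefficient of variation was 0.102 with no filter. No paired analysis was possible because the samples form 1 group. Genes under 50 counts are limited by depth, and 2 hearts give no measure of the spread among litters.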

Other observations

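Some members that lie next to each other in the genome had unlike levels, while others were alike near 0, such as Kcnj9 and Kcnj10 (at most 0.02 TPM). Kcne2 and Kcne1 lie 47852 bases apart on chromosome 16, on opposite strands, at 1.38 and 316 TPM in replicate 1 and 1.12 and 245 TPM in replicate 2. Kcnj16 and Kcnj2 lie 38195 bases apart on chromosome 11 on the same strand, and Kcnj16 had 0 counts in both hearts while Kcnj2 had 1100 and 1078. Kcnj5 lies 28142 bases from Kcnj1, which had 0 counts in both. On chromosome 6, Kcna5 stood at 7.01 and 6.75 TPM, with Kcna1 104984 bases away at 0.02 TPM in both hearts. The channel genes that pair with a sulphonylurea receptor gene were closer to it in level. Kcnj8 and Abcc9, 16247 bases apart, stood at 18.2 and 15.0 TPM in replicate 1 and at 16.7 and 12.95 TPM in replicate 2. Kcnj11 and Abcc8, 3758 bases apart, stood at 8.05 and 9.96 TPM in replicate 1 and at 8.43 and 8.83 TPM in replicate 2.

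Kcne1l, a relative of the Kcne genes whose symbol ends in a letter and so fell outside the family rule, stood at 4.68 and 5.37 TPM, above Kcne2, Kcne3 and Kcne4 in both hearts.

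The deposited credibility intervals lay above the deposited TPM by more than the rounding of the TPM in both hearts for 6 members. Without that margin, 26 members had a TPM outside its interval in either heart. Kcnab2, with 14 transcripts, had a TPM of 0.78 and an interval of 1.03 to 2.42 in replicate 1. None of the 22 detected members was among them.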
